A study of Mus musculus with 27 samples.

Results

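The p53 target genes followed here were 10 of the 19392 genes in the deposited expression values, chosen by symbol: Cdkn1a, Mdm2, Ccng1, Gdf15, Bax, Bbc3, Sesn2, Trp53inp1, Phlda3 and Pmaip1. All 10 were measured in each of 27 left kidneys of wild-type C57BL/6 mice, 3 mice at each of 9 ischemia times (0, 16, 18, 20, 22, 24, 26, 28 and 30 min). The left renal pedicle was clamped for the given time on a warm plate, the right kidney was removed, and the left kidney was taken after 24 h and sequenced as whole tissue. The 0 min group is labelled sham. The study describes removal of the right kidney for the model, without a separate statement for the 0 min group. The labels give neither age nor sex. Expression is given as FPKM, which counts fragments per transcript length and per mapped total, and a change as log2 fold change on normalized log2(FPKM + 1), which understates the change of low genes.

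p53 is a transcription factor that is kept low by MDM2, a ubiquitin ligase which p53 itself switches on, and that accumulates after DNA damage and other stress. Its targets can hold the cell cycle, repair DNA, drive the mitochondrial route of apoptosis or feed back on p53. In the injured kidney, p53 has been studied mainly in tubule cells, where cell cycle arrest and cell death follow ischemia. Several of its targets also answer to other regulators: Gdf15 and Sesn2, for example, are switched on by the integrated stress response factor ATF4.

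The p53 binding sequence is 2 copies of a 10-base half-site with a short or absent spacer, and the promoters of the members were searched for single half-sites. RefSeq start sites on GRCm38.p6 gave 12 promoter windows, each of 300 bases, from 250 bases before to 50 bases from the start on, for 8 of the 10 members. An exact match to the p53 half-site consensus, which reads the same on both strands, was found in 4 of the 12 windows and 4 of the 8 genes. Of all 32851 promoters, 8.36% held a match, and of all 27025 genes 9.55% had one in any promoter. The matches with 25 bases on each side are given in the direction of transcription, with the half-sites in capitals, because these 4 genes include both members that rose after ischemia and members that did not.
Cdkn1a, chr17:29090881-29090962, + strand, 73 and 51 bases before the start: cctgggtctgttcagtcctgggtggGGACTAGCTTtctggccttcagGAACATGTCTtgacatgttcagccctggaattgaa
Bax, chr7:45467065-45467124, - strand, 201 bases before the start: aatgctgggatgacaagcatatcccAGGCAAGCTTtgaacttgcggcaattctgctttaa
Mdm2, chr10:117710910-117710969, - strand, 186 bases before the start: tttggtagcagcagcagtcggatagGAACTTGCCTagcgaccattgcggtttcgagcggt
Ccng1, chr11:40755437-40755496, - strand, 185 bases before the start: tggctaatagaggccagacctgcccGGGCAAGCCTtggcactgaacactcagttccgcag

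No exact half-site was found in the windows of Gdf15, Phlda3, Sesn2 and Bbc3. The 4-base sequence CATG, which the consensus allows as a core among others, stood in 5 of the 12 windows against 61.11% of all promoters. Of the half-sites shown, only the Cdkn1a match 51 bases before the start holds it. The longer cores ACATG or CATGT, which overlap CATG, stood in 4 of the 12 against 32.64%. A match is a description of letters in this window and says nothing of p53 binding in these kidneys.

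Cdkn1a, Gdf15, Bax and Phlda3 were called higher than in the sham kidneys after 28 and 30 min of ischemia. Gdf15 was called at every shorter time too, and none of the other 6 members was called in any comparison with the sham kidneys. Below 28 min Bax and Phlda3 passed the adjusted p alone at some times, and Cdkn1a at none. At each time from 18 to 26 min these 4 genes were above all sham kidneys, for which no share of all genes is given here. A gene was called when its absolute log2 fold change was above 1 and its adjusted p under 0.05. At 28 min against 0 min 4 of the 10 members were called higher and 0 lower, where 4.27% and 4.21% of the 18188 genes tested were called higher and lower. At 30 min against 0 min it was the same 4 higher and 0 lower, beside 5.14% and 5.59% of all genes. The 18188 genes include many low ones, whose changes this scale shrinks. With a filter of 1 FPKM in at least 3 kidneys a larger share was called in either direction. This was 1495 of 12929 genes at 28 min and 1871 at 30 min, against 1542 and 1950 of 18188. The members called were 4 at both times there too. By the adjusted p alone, the same 4 were higher and 2 were lower at 28 min (Sesn2 and Trp53inp1), beside 24.5% and 23.6% of all genes, and the same 4 were higher and 1 was lower at 30 min (Sesn2), beside 26.9% and 25.4%. Counting members whose 3 kidneys did not overlap the 3 sham kidneys, 6 were higher and 2 lower at 28 min, beside 35.5% and 21.4% of all genes, and 6 higher and 0 lower at 30 min, beside 33.3% and 21.2%. The median log2 fold change of the 10 members was 0.27 at 28 min and 0.38 at 30 min, beside 0.00 over all genes tested at both times.

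**Figure D1:**
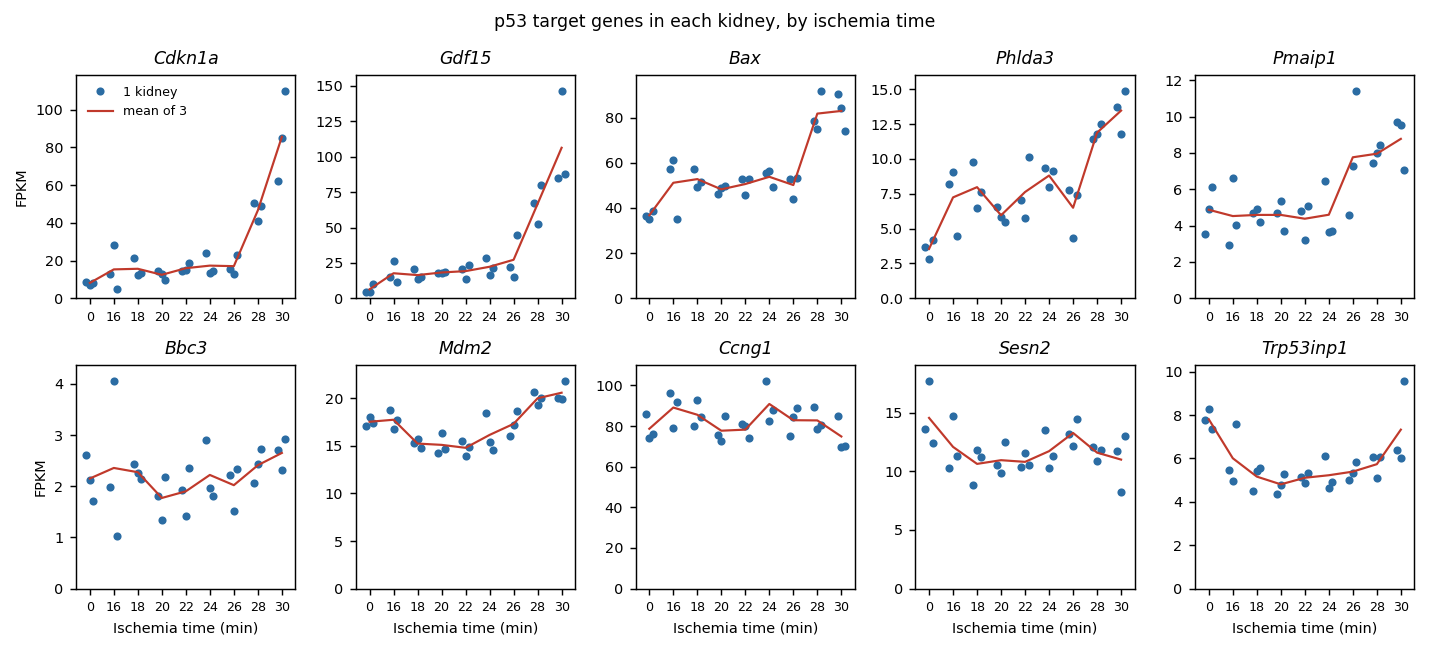
FPKM of each member (vertical axes, from 0, with a scale for each gene) in 27 kidneys by ischemia time (horizontal axes, in min, drawn as evenly spaced categories), with 1 point for each kidney and a line through the means of 3. The 3 kidneys at 28 min and the 3 at 30 min stand above every other kidney for Cdkn1a, Gdf15, Bax and Phlda3. The same holds by a small margin for Mdm2, whereas Ccng1, Bbc3 and Sesn2 overlap across most times.

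Among the arrest genes, Cdkn1a codes for p21, the inhibitor of cyclin-dependent kinases that halts the cell cycle, and it lies at chr17:29090976-29100727 on the + strand in GENCODE on GRCm38. In the sham kidneys Cdkn1a was at 8.93, 7.32 and 8.28 FPKM. At 16 min it was at 12.97, 28.18 and 4.92 FPKM, so that 1 kidney was below and 2 were above the sham range. Over the 18 kidneys of 16 to 26 min its lowest, median and highest values were 4.92, 14.3 and 28.18 FPKM. It then reached 50.32, 40.8 and 48.86 FPKM at 28 min. At 30 min it was at 62.25, 84.82 and 109.89 FPKM. The 28 and 30 min kidneys lay above all 18 kidneys of 16 to 26 min, and the 30 min kidneys above those of 28 min. The mean rose from 8.18 ± 0.81 FPKM (SD, n = 3) at 0 min to 85.7 ± 23.8 FPKM (SD, n = 3) at 30 min. Against 0 min the log2 fold change of Cdkn1a was 2.26 ± 0.38 (SE) at 28 min with adjusted p = 5.6e-05. It was 3.17 ± 0.38 (SE) at 30 min with adjusted p = 7.17e-07. From 16 to 26 min the log2 fold changes of Cdkn1a lay between 0.45 and 0.85, and the adjusted p-values between 0.10 and 0.46, so none passed. The SE of 0.38 is shared by all groups, including the wide 16 min group. At each time from 18 to 26 min every kidney was above the sham kidneys, the lowest at 9.8 FPKM. The 16 min value of Cdkn1a rested on single kidneys: it was -0.10 (adjusted p = 0.92) without 16 min replicate 2 and 1.03 (adjusted p = 0.021) without 16 min replicate 3.

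Gdf15, which codes for a secreted stress cytokine of the TGF-β superfamily that acts on appetite through a hindbrain receptor, had the widest range of the 10. Its means spanned 16.7-fold, against 10.5-fold for Cdkn1a, 3.80-fold for Phlda3 and 2.26-fold for Bax, while each of the other 6 members spanned less than Bax. The sham kidneys were at 4.25, 4.66 and 10.2 FPKM, the third higher than the others. At 16 min Gdf15 was at 15.23, 26.16 and 11.77 FPKM. The lowest, median and highest of the 18 kidneys of 16 to 26 min were 11.77, 18.42 and 44.93 FPKM, all above the sham kidneys. At 28 min it was at 67.63, 52.19 and 80.29 FPKM, and at 30 min at 84.65, 146.3 and 87.95 FPKM. Every kidney at 28 and 30 min was above the highest of the shorter times. Gdf15 was the only member called at every one of the 8 ischemia times against 0 min, with a log2 fold change of 1.26 ± 0.36 (SE, adjusted p = 0.019) at 16 min, 1.77 ± 0.36 (SE, adjusted p = 9.4e-04) at 26 min and 3.88 ± 0.36 (SE, adjusted p = 2.25e-08) at 30 min.

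With Gdf15 as the 1 called member, the share of members called higher at the 6 short times was 1 of 10 each, and 0 were called lower. In the order of these 6 times, the share of all genes called higher was 1.28%, 1.97%, 1.55%, 2.09%, 1.97% and 2.16%. The share called lower was 0.979%, 1.09%, 0.962%, 1.2%, 1.15% and 1.61%. By the adjusted p alone, 2 members were higher and 1 lower after 16 min (9.43% and 9.61% of all genes), and 3 were higher and 3 lower after 18 min (12.6% and 15.2%). After 20 min 1 was higher and 3 were lower (10.7% and 12.1%), and after 22 min 3 were higher and 3 lower (13.4% and 15.4%). After 24 min 3 were higher and 2 lower (13.6% and 14.8%), and after 26 min 2 were higher and 1 lower (14.9% and 15.2%). These counts held Gdf15, Bax and Phlda3 on the higher side and Mdm2, Sesn2 and Trp53inp1 on the lower side. The call of Gdf15 at 16 min was lost without sham replicate 1 (adjusted p = 0.080), sham replicate 2 (0.082) or 16 min replicate 2 (0.12). At 18 min it was lost without sham replicate 1 (0.074), sham replicate 2 (0.068) or 18 min replicate 1 (0.075). With only the 2 groups compared in the fit, Gdf15 was not called at 16 min (adjusted p = 0.18), 18 min (0.052) or 26 min (0.060).

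Of the apoptosis genes, Bax codes for the pore-forming protein of the outer mitochondrial membrane, and it rose by about the size of the called minimum. Bax was at 36.51, 35.26 and 38.53 FPKM in the sham kidneys. It was at 57.12, 61.19 and 35.14 FPKM at 16 min, where the third kidney lay below the sham range. Over the 18 kidneys of 16 to 26 min the lowest, median and highest were 35.14, 52.3 and 61.19 FPKM. At 28 min Bax was at 78.5, 75.08 and 91.72 FPKM. At 30 min it was at 90.57, 84.05 and 74.23 FPKM, overlapping the 28 min kidneys. The log2 fold change against 0 min was 1.04 ± 0.13 (SE, adjusted p = 2.16e-06) at 28 min and 1.12 ± 0.13 (SE, adjusted p = 5.09e-07) at 30 min. Without 28 min replicate 3 the value of Bax at 28 min was 0.95, under the minimum of 1. At 18, 22, 24 and 26 min Bax passed the adjusted p alone, with log2 fold changes of 0.35 to 0.43. None of these 4 passed without sham replicate 2, where the adjusted p was 0.080, 0.13, 0.061 and 0.12.

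Bbc3 and Pmaip1 code for PUMA and NOXA, the BH3-only proteins that p53 uses to free BAX and BAK, and neither passed the test at any time against 0 min. Bbc3 was a low gene, at 2.6, 2.13 and 1.72 FPKM in the sham kidneys and 2.7, 2.32 and 2.93 FPKM at 30 min, and its log2 fold changes against 0 min ran from -0.34 to 0.10. Its highest and lowest values, 4.05 and 1.03 FPKM, were both in the 16 min group. Pmaip1 was at 3.55, 4.93 and 6.14 FPKM in the sham kidneys. It was at 7.47, 7.98 and 8.42 FPKM at 28 min and at 9.69, 9.55 and 7.08 FPKM at 30 min, without overlap with the sham kidneys. Its log2 fold change was 0.50 at 28 min with adjusted p = 0.13 and 0.62 at 30 min with adjusted p = 0.052. Against 16 min, Pmaip1 was higher at 30 min by 0.86 ± 0.26 (SE), with adjusted p = 0.012, which became 0.081 without 16 min replicate 1.

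Phlda3 codes for a pleckstrin homology protein that competes with AKT for membrane lipids and so holds back survival signals. It was at 3.68, 2.79 and 4.17 FPKM in the sham kidneys and at 8.19, 9.06 and 4.47 FPKM at 16 min. Over the 18 kidneys of 16 to 26 min its lowest, median and highest values were 4.33, 7.52 and 10.1 FPKM. At 28 min it reached 11.4, 11.77 and 12.47 FPKM, and at 30 min 13.73, 11.8 and 14.86 FPKM. All 24 ischemic kidneys were above the 3 sham kidneys, and the 28 and 30 min kidneys were above all others. The log2 fold change of Phlda3 was 1.36 ± 0.21 (SE, adjusted p = 2.22e-05) at 28 min and 1.56 ± 0.21 (SE, adjusted p = 3.25e-06) at 30 min. At 16, 18, 22 and 24 min it passed the adjusted p without the fold minimum, with log2 fold changes of 0.70 to 0.98. The value of Phlda3 at 24 min lay just under the minimum of 1 and was above it, at 1.12 to 1.21, without quantile normalization and with TPM scaling, and at 1.06 and 1.04 without sham replicate 3 or 24 min replicate 2. It was also called without sham replicate 1 (adjusted p = 0.0053). At 16 min Phlda3 did not pass the adjusted p without 16 min replicate 2 (0.15), and at 22 min it did not without 22 min replicate 3 (0.069), among other kidneys.

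The feedback genes were not called in any comparison. Mdm2, which codes for the ubiquitin ligase of p53, was at 17.11, 18.09 and 17.43 FPKM in the sham kidneys. At 22 min it was at 15.54, 13.93 and 14.94 FPKM, all below the sham range. At 28 min it was at 20.63, 19.32 and 20.09 FPKM, and at 30 min at 20.04, 19.96 and 21.8 FPKM. The 28 and 30 min kidneys were above every kidney of the shorter times, the highest of which was at 18.73 FPKM. Its means spanned 1.39-fold over all times. Against 0 min Mdm2 fell by 0.27 at 18 min (adjusted p = 0.0078), by 0.27 at 20 min (0.0097), by 0.31 at 22 min (0.0027) and by 0.22 at 24 min (0.030), all on the log2 scale with an SE of 0.07. At 28 and 30 min its log2 fold changes were 0.05 and 0.13, with adjusted p = 0.61 and 0.14. Against 16 min it was higher at 30 min by 0.20 ± 0.07 (SE), with adjusted p = 0.035, which became 0.15 without 16 min replicate 2 or 30 min replicate 3. At 24 min it did not pass without 24 min replicate 3 (adjusted p = 0.16), among other kidneys, and at 20 min not without 20 min replicate 1 (0.058). These shifts were small enough to depend on the scaling: without quantile normalization Mdm2 missed the threshold at 18 min (log2 fold change -0.19, adjusted p = 0.055) and passed at 30 min (0.22, adjusted p = 0.014).

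Ccng1, which codes for cyclin G1, a partner of protein phosphatase 2A that acts on MDM2, was the least variable member, with means that spanned 1.21-fold. It was at 85.96, 74.03 and 75.99 FPKM in the sham kidneys and at 84.75, 69.5 and 70.34 FPKM at 30 min, and the groups overlapped. Its log2 fold changes against 0 min ran from -0.09 to 0.14 and none passed the test. At these levels Ccng1 and Bax were the 2 most highly expressed members in the sham kidneys on the FPKM scale, which is per length. Trp53inp1 codes for a nuclear protein that promotes the phosphorylation of p53, and it was lower than in the sham kidneys at the shorter times. It was at 7.79, 8.27 and 7.36 FPKM in the sham kidneys and at 4.36, 4.79 and 5.27 FPKM at 20 min, where it fell by 0.70 ± 0.15 (SE) on the log2 scale with adjusted p = 0.0021. It passed the adjusted p at each time from 16 to 28 min, with falls of 0.45 to 0.70, and was never called. At 30 min it was at 6.4, 6.03 and 9.56 FPKM, of which only the third reached the sham range, with a log2 fold change of -0.21 and adjusted p = 0.24. Without that kidney it was -0.39 with adjusted p = 0.027. Without 30 min replicate 1 it was -0.13, and without 30 min replicate 2 -0.12. At 16 min Trp53inp1 did not pass without 16 min replicate 2 (adjusted p = 0.20), among other kidneys.

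Sesn2, which codes for sestrin 2, a leucine sensor that restrains mTORC1, was at 13.58, 17.69 and 12.43 FPKM in the sham kidneys. At 30 min it was at 11.7, 8.27 and 13.05 FPKM, overlapping them. It fell by 0.51 at 18 min (adjusted p = 0.016), by 0.46 at 20 min (0.032), by 0.49 at 22 min (0.020), by 0.42 at 28 min (0.026) and by 0.48 at 30 min (0.011) on the log2 scale, with an SE of 0.15. Without quantile normalization the adjusted p of Sesn2 was 0.052, 0.090, 0.069 and 0.13 at 18, 20, 22 and 28 min. Without sham replicate 2, the highest of the 27 kidneys for Sesn2, it did not pass at any of the 5 times (adjusted p from 0.082 to 0.18). Sesn2 overlaps another annotated gene on the same strand, as Bax does, and Cdkn1a overlaps one on the opposite strand; the file lists none of these, and whether strand was used in counting is not given in the sources used here.

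**Figure D2:**
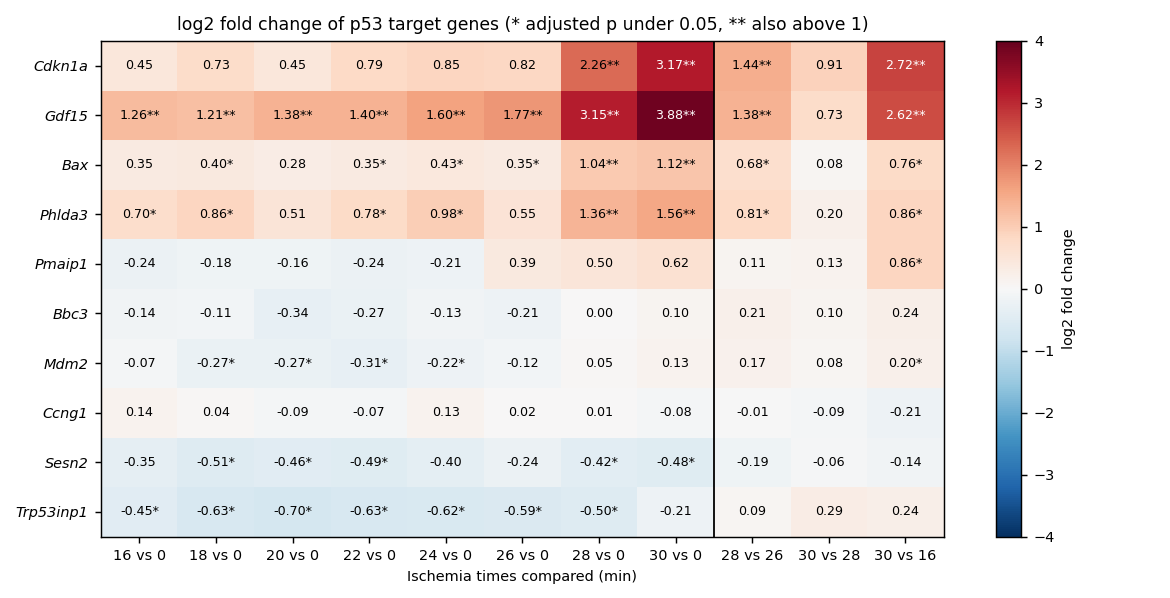
log2 fold change of the 10 members (rows) in 8 comparisons with the 0 min group and in 3 comparisons between ischemia times (columns, min), with colour from blue (lower) to red (higher), 1 star where the adjusted p was under 0.05 and 2 where the absolute log2 fold change was also above 1. Cdkn1a and Gdf15 reach 3.17 and 3.88 at 30 min, whereas Ccng1 and Bbc3 hold no star.

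The comparisons with 0 min share the same 3 sham kidneys, so the ischemia times were also compared directly, to ask where along the series the members moved. Between 26 and 28 min 2 of the 10 members were called higher and 0 lower, where 0.44% and 1.06% of all genes were called. Cdkn1a, at 15.58, 12.86 and 22.76 FPKM at 26 min, rose by 1.44 ± 0.38 (SE) on the log2 scale with adjusted p = 0.012. Gdf15, at 21.89, 14.88 and 44.93 FPKM at 26 min, rose by 1.38 ± 0.36 (SE) with adjusted p = 0.010. In both genes the third 26 min kidney was the highest of its group, and the 28 min kidneys did not overlap the group. Bax and Phlda3 passed the adjusted p with smaller changes, so that 4 members were higher by this measure and 0 lower beside 10.8% and 8.52% of all genes. They rose by 0.68 ± 0.13 (SE, adjusted p = 0.0012) and 0.81 ± 0.21 (SE, adjusted p = 0.011). Without overlap, 5 members were higher (these 4 and Mdm2) and 1 lower (Sesn2), beside 20% and 16.4% of all genes. Without 26 min replicate 2 both calls were lost, at 1.27 for Cdkn1a (adjusted p = 0.062) and 1.04 for Gdf15 (adjusted p = 0.079), and Phlda3 did not pass either (0.57, adjusted p = 0.085).

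Between 28 and 30 min 0 members were called by limma, and 0.401% and 0.649% of all genes were called higher and lower. By the adjusted p alone it was 0 members in either direction, beside 6.47% and 6.77% of all genes. Cdkn1a and Gdf15 were higher by 0.91 (adjusted p = 0.13) and 0.73 (adjusted p = 0.20), and for these 2 members the kidneys of both groups did not overlap, beside 11.9% of all genes that were higher without overlap, and 0 members against 16.4% were lower. Between 16 and 30 min 2 members were called higher and 0 lower, beside 2.56% and 3.67% of all genes. These were Cdkn1a at 2.72 ± 0.38 (SE, adjusted p = 1.01e-05) and Gdf15 at 2.62 ± 0.36 (SE, adjusted p = 7.53e-06). Bax, Phlda3, Pmaip1 and Mdm2 passed the adjusted p alone, which made 6 members higher and 0 lower beside 22.5% and 18.1% of all genes. The same 6 were higher without overlap and 0 were lower, beside 19.9% and 18.8%. Without 16 min replicate 2, the highest of its group for Cdkn1a and Gdf15, 4 members were called, with Phlda3 at 1.02 and Pmaip1 at 1.11. Without 30 min replicate 3 Pmaip1 was called too, at 1.01.

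Over the 18 kidneys of 16 to 26 min none of the 10 members passed a limma test of a slope with ischemia time, 0 were at an unadjusted p under 0.05, and 0.011% of all genes passed with a positive slope and 0% with a negative one. The steepest was Gdf15, whose fitted change over 10 min was 0.53 on the log2 scale, with unadjusted p = 0.061 and adjusted p = 0.59. Cdkn1a changed by 0.36 over the same 10 min (adjusted p = 0.80) and Pmaip1 by 0.42 (adjusted p = 0.65). With Phlda3 at -0.01 and Bax at 0.02, the level of these 2 members had no detectable slope in this span.

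Within those 18 kidneys the members were then compared with each other, to ask which of them varied together. The r takes in differences between ischemia times as well as between mice. With the mean of each time taken off, r was 0.839 for Cdkn1a and Bax. It was then 0.768 for Gdf15 and Phlda3 (0.535 over the 18 kidneys) and 0.022 for Mdm2 and Sesn2 (0.36). Of 45 pairs, 12 had an adjusted p under 0.05 by Pearson's r in a two-sided permutation test, and each of the 12 was positive. With Spearman's rho 11 pairs passed, and 9 passed by both. The share of passing pairs among other genes was not computed, so these pairs cannot be read as particular to the members. Cdkn1a and Bax had r = 0.82 (permutation p = 0.00013, adjusted p = 0.0019) and rho = 0.608 (permutation p = 0.0085, adjusted p = 0.035), and r was 0.519 without the 2 kidneys farthest from the median of Cdkn1a. Cdkn1a and Gdf15 had r = 0.722 (permutation p = 0.0015, adjusted p = 0.0099) and rho = 0.773 (permutation p = 0.00023, adjusted p = 0.0034), and 0.719 without the 2 farthest. Bax and Phlda3 had r = 0.797 (permutation p = 5e-05, adjusted p = 0.0011) and rho = 0.798 (permutation p = 0.00014, adjusted p = 0.0031), and 0.773 without the 2 farthest. Bbc3, which passed no comparison between groups, went with Bax at r = 0.837 (permutation p = 3e-05, adjusted p = 0.0011) and rho = 0.796 (permutation p = 0.00014, adjusted p = 0.0031), and 0.725 without the 2 farthest.

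Mdm2 and Cdkn1a had r = -0.047 (permutation p = 0.86, adjusted p = 0.90) and rho = -0.069 (permutation p = 0.79, adjusted p = 0.91). Mdm2 passed with Ccng1, at r = 0.647 (permutation p = 0.0036, adjusted p = 0.015) and rho = 0.487 (permutation p = 0.042, adjusted p = 0.14), and 0.565 without the 2 farthest. It also passed with Trp53inp1, at r = 0.615 (permutation p = 0.0033, adjusted p = 0.015) and rho = 0.498 (permutation p = 0.038, adjusted p = 0.14), and 0.642 without the 2 farthest. Ccng1 and Trp53inp1 had r = 0.669 (permutation p = 0.002, adjusted p = 0.012) and rho = 0.699 (permutation p = 0.0017, adjusted p = 0.015), and 0.706 without the 2 farthest. The pairs were also taken without the 16 min kidneys, which leaves fewer kidneys and so a weaker test. In the other 15 kidneys 6 of the 45 pairs passed. Of the 6 pairs among Cdkn1a, Gdf15, Bax and Phlda3, 4 passed in the 18 kidneys and 2 in these 15. In these 15 kidneys the r of the 6 pairs lay between 0.468 and 0.784, against 0.535 and 0.82 in the 18 kidneys. There Mdm2 no longer passed with Ccng1 (r = 0.537, adjusted p = 0.11) or Trp53inp1 (r = 0.609, adjusted p = 0.066) by permutation. Its r with Cdkn1a was 0.42 (permutation, adjusted p = 0.21), and its pair with Pmaip1 was the strongest of the 45, at r = 0.864 (permutation, adjusted p = 0.0018), against 0.455 in the 18 kidneys.

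**Figure D3:**
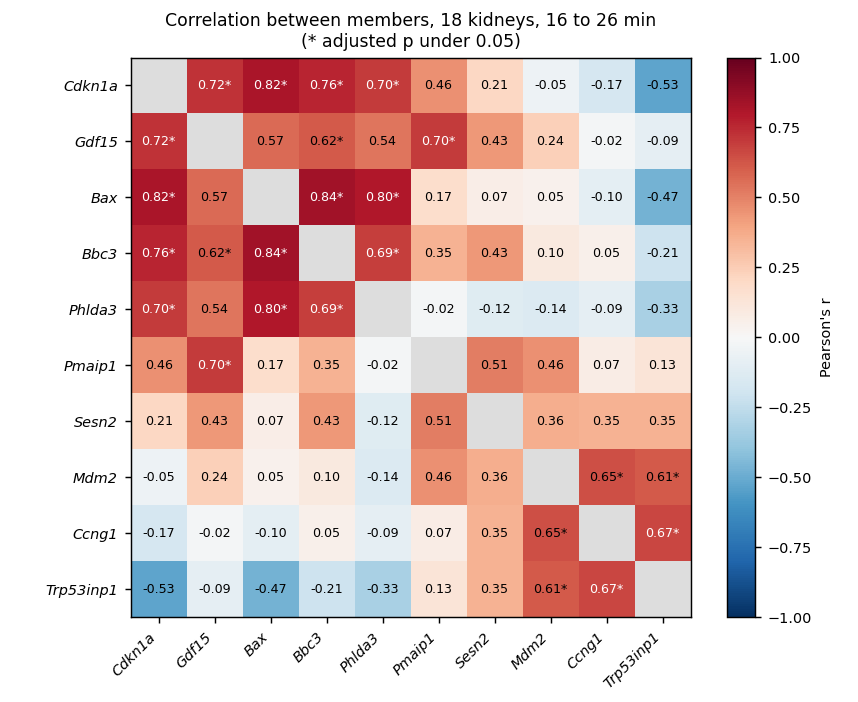
Pearson's r between each pair of members over the 18 kidneys of 16 to 26 min (rows and columns are members, colour from blue at -1 to red at 1), with a star where the permutation p adjusted over 45 pairs was under 0.05. Cdkn1a, Gdf15, Bax, Bbc3 and Phlda3 form a block with r from 0.535 to 0.837, where Gdf15 holds no star with Bax or Phlda3. Mdm2, Ccng1 and Trp53inp1 form a smaller block of 3 pairs, and Gdf15 also holds a star with Pmaip1 (r = 0.696).

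Over the 9 group means of normalized log2(FPKM + 1), the courses most like those of 4 members were found among 12345 genes with a mean of at least 1 FPKM. For Cdkn1a they were Maea (r = 0.9946), Capn2 (0.9946) and Wdr92 (0.9938), and for Phlda3 Srprb (0.9874), Rab35 (0.9841) and Sting1 (0.9839). For Mdm2 they were Lysmd3 (0.9855), Csnk1g1 (0.9851) and Ddx3y (0.9831). The course of Ccng1, which had the smallest range, was matched least well, by Zfp967 (0.8272), Rfx7 (0.8063) and Zfp526 (0.8034). These values describe 9 means from 1 set of libraries.

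Trp53, the gene of p53 itself, was called higher at 28 and 30 min, as Cdkn1a, Gdf15, Bax and Phlda3 were. It was at 17.4, 19.15 and 18.98 FPKM in the sham kidneys and at 28.06, 41.84 and 17.96 FPKM at 16 min. At 28 min it was at 49.47, 54.27 and 56.4 FPKM and at 30 min at 45.54, 40.97 and 40.01 FPKM, so that the 28 min kidneys were the highest of the series. Its log2 fold change was 0.48 ± 0.18 (SE, adjusted p = 0.074) at 16 min, 1.39 ± 0.18 (SE, adjusted p = 3.79e-06) at 28 min and 1.10 ± 0.18 (SE, adjusted p = 3.93e-05) at 30 min. Mdm4, which codes for the MDM2 relative that binds p53 and blocks its transcriptional activity, fell. It went from 9.17 ± 0.37 FPKM (SD, n = 3) at 0 min to 6.92 ± 0.40 FPKM (SD, n = 3) at 28 min, a fall by 0.47 on the log2 scale with adjusted p = 1.87e-05. The fall was 0.38 at 30 min, with adjusted p = 1.64e-04. Of 15 genes of p53 and its regulators, 0 were called at 16 min, 2 were called higher at 28 min (Trp53 and the checkpoint kinase gene Chek1) and 1 at 30 min (Trp53), with 0 lower at each time and a median log2 fold change of -0.02 at 30 min.

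Other p53 targets were taken in lists by role. The share of all genes called higher, to set beside each list, was 1.28% at 16 min, 4.27% at 28 min and 5.14% at 30 min, and the share called lower 0.979%, 4.21% and 5.59%. Of 17 targets listed under arrest and DNA repair, 4 were called higher at 16 min (Plk3, Sfn, Ckap2 and Gtse1). At that time 4 of 6 cycling cell genes, given below, were called higher too. Of the 17, 6 were called higher at 28 min and 5 at 30 min, and only Ccng2 was called lower, at 28 min. Their median log2 fold change at 30 min was 0.39. The 3 that moved furthest at 30 min were the polo-like kinase gene Plk3 (3.94, adjusted p = 2.01e-09), Sfn, which codes for the 14-3-3σ protein (3.48, adjusted p = 1.43e-07), and the antiproliferative gene Btg2 (2.14, adjusted p = 8.55e-07). Of 14 apoptosis targets, the death receptor gene Fas was called lower at 16 min, 2 were called higher at 28 min (Aen and Siva1) and 1 at 30 min, the nuclease gene Aen (1.38, adjusted p = 1.88e-08). Of 15 metabolism and antioxidant targets, 0 were called at 16 min and 4 were called lower at 28 and at 30 min, with 0 higher. These included Pank1, of coenzyme A synthesis (-1.95, adjusted p = 2.55e-09), the proline pathway gene Aldh4a1 (-1.46, adjusted p = 2.18e-08) and the phosphatidate phosphatase gene Lpin1 (-1.42, adjusted p = 3.27e-06).

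Since Gdf15, Sesn2, Bbc3 and Pmaip1 are also known targets of ATF4 or its partners, 13 genes of the integrated stress response were set beside them. Of these, 1 was called higher at 16 min (Phgdh), 7 at 28 min and 9 at 30 min, beside 1.28%, 4.27% and 5.14% of all genes, and 0 were called lower, with a median log2 fold change of 1.16 at 30 min. The largest were the stress transcription factor genes Atf3 (2.32, adjusted p = 6.22e-05) and Atf5 (2.21, adjusted p = 6.82e-08) and the serine synthesis gene Phgdh (2.09, adjusted p = 1.48e-07). Sesn2 fell at 28 and 30 min, as given above, but did not pass at either time without sham replicate 2. Whether ATF4 had a part in the changes of the members was not tested. Of 12 BCL2 family genes outside the members, 0 were called at 16 min, 1 higher at 28 min and 2 higher at 30 min, which were the survival gene Bcl2l1 (1.38, adjusted p = 2.18e-08) and the pore-forming Bak1 (1.06, adjusted p = 4.69e-05). The median of all genes tested was 0.00 at 28 and 30 min.

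**Figure D4:**
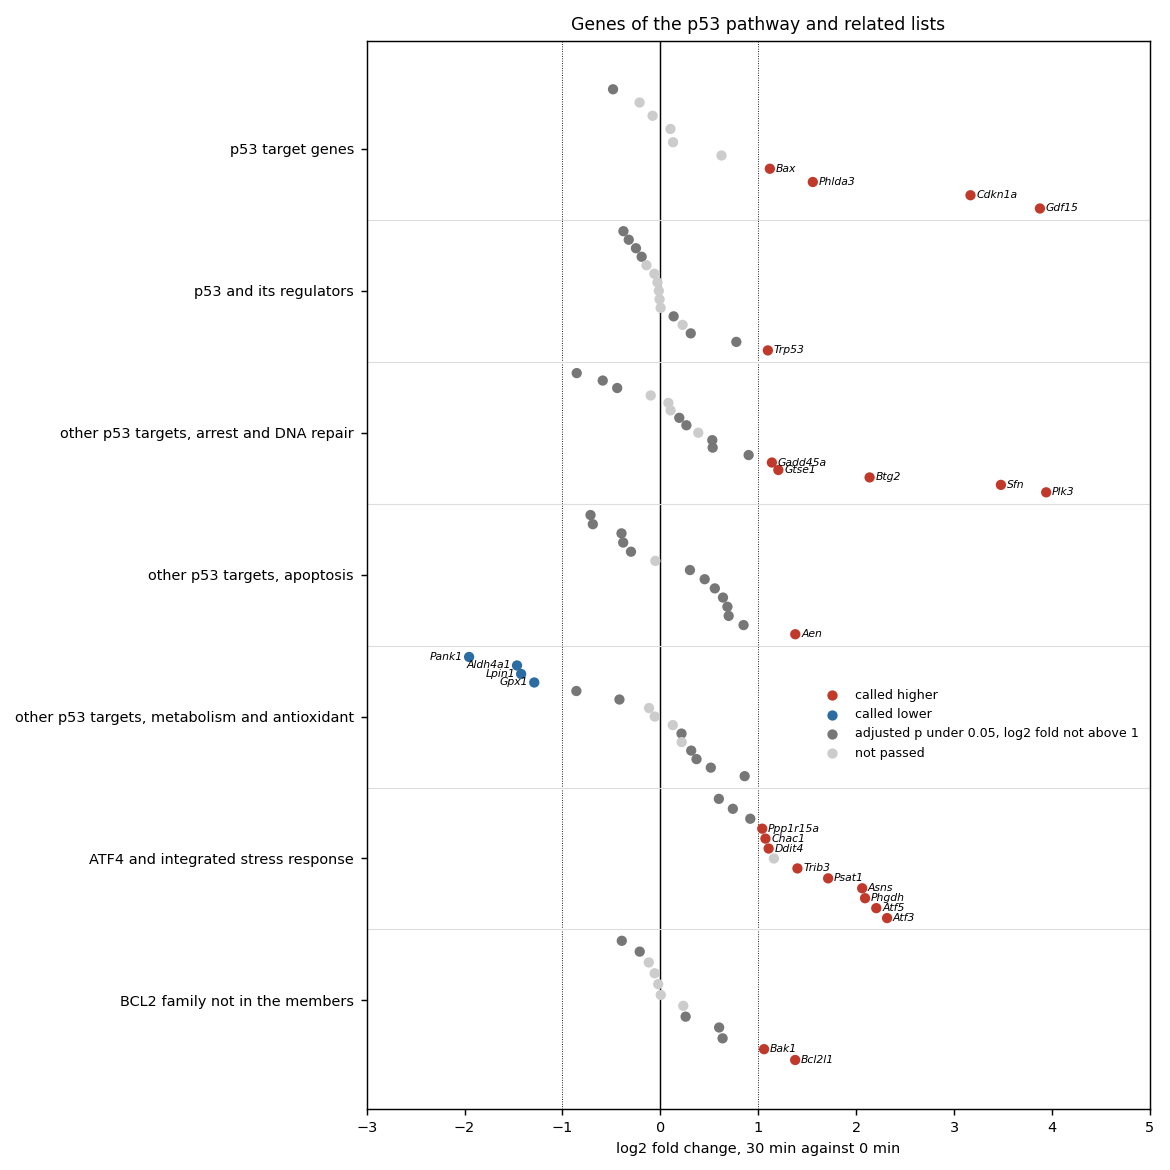
log2 fold change at 30 min against 0 min (horizontal axis) of each gene in the p53 target, p53 regulator, other p53 target, integrated stress response and BCL2 family lists (rows), 1 point a gene, red where called higher, blue where called lower, dark grey where the adjusted p alone was under 0.05 and light grey where it was not. The called genes of the metabolism list lie to the left, with Pank1 at -1.95, and those of the other lists to the right.

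Other measures moved with the ischemia time. The summed level of 8 proximal tubule markers was 49840 to 52810 FPKM in the sham kidneys, 12270 to 33470 FPKM from 16 to 26 min, 7639 to 9254 FPKM at 28 min and 5812 to 8152 FPKM at 30 min, and 7 of the 8 were called lower at 30 min. This sum was mostly Kap, a kidney androgen-regulated gene at 48144 ± 1344 FPKM (SD, n = 3) in the sham kidneys and 24882 ± 6236 FPKM (SD, n = 3) at 16 min. At 16 min 0 of the 8 were called on the normalized scale, 2 were lower by the adjusted p alone, and their median log2 fold change was -0.18. Of 5 tubular injury markers 4 were called higher at 30 min, and their sum was 15.84 to 90.1 FPKM in the sham kidneys, 2144 to 2264 FPKM at 28 min and 2518 to 4918 FPKM at 30 min. The third 16 min kidney, which was the lowest of the 24 ischemic kidneys for Cdkn1a, Gdf15, Bax and Bbc3, had an injury sum of 70.66 FPKM, within the sham range, while its proximal tubule sum was 27860 FPKM.  At 30 min 5 of 5 red blood cell markers and 2 of 5 neutrophil markers (S100a8 and S100a9) were called higher, with neutrophil sums of 4.89 to 10.91 FPKM in the sham kidneys and 19.87 to 28.18 FPKM at 30 min. The red blood cell sums were 123.2 to 645.2 FPKM in the sham kidneys and 795.9 to 1470 FPKM at 30 min. Of the other marker lists at 30 min, 4 of 5 loop of Henle and distal tubule genes and 1 of 5 collecting duct genes were called lower. In the podocyte list 1 of 4 was called higher, in the fibroblast list 2 of 4 higher and 1 lower. Of 6 macrophage and monocyte genes 1 was called higher and 2 lower. Called either way were 0 of 4 endothelial and 0 of 6 lymphocyte genes. By the adjusted p alone, 3 of the 4 endothelial genes were higher and 2 of the 6 lymphocyte genes lower, beside 26.9% and 25.4% of all genes. The endothelial sums were 56.75 to 68.81 FPKM in the sham kidneys and 79.22 to 122.8 FPKM at 30 min. The third 30 min kidney, the highest of its group for Cdkn1a and Trp53inp1, had a loop of Henle and distal tubule sum of 2401 FPKM against 634.4 and 653.5 FPKM in the other two, and a collecting duct sum of 593.6 FPKM against 235.3 and 250.5 FPKM. Of the cycling cell genes, 4 of 6 were called higher at 16 min, 5 of 6 at 28 min and 0 of 6 at 30 min. Their sums were 37.51 to 51.65 FPKM in the sham kidneys, 74.27 to 145.6 FPKM at 16 min, 153 to 177.3 FPKM at 28 min and 70.96 to 112.5 FPKM at 30 min. None of the proximal tubule, injury or red blood cell markers was listed at 0 in any sham, 28 min or 30 min kidney. The natural killer cell gene Ncr1 was at 0 in all 3 kidneys at 30 min, in 1 at 28 min and in 1 sham kidney. The 6 lymphocyte genes together were low already in the sham kidneys, at 0.96 to 3.05 FPKM. The part of cell composition in the members' changes was not tested, and in whole tissue fewer cells of a type and less RNA per cell cannot be told apart.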

How the data were processed

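Total RNA of 27 left kidneys was sequenced on DNBSEQ-G400. The deposited values are FPKM per gene and kidney, made by the authors, on a linear scale with 2 decimals. The submitters' processing notes name Bowtie2, RSEM, DESeq2 and GRCm38.p6 without versions or roles, and the study's text calls the unit RPKM. FPKM sums were 512500 to 554000 per kidney. Read counts were not used here, and the depth of each kidney is unknown. No 2 kidneys had identical values.

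FPKM values were turned into log2(FPKM + 1) and quantile normalized, since the study's methods name quantile normalization, log2 transformation and limma. Genes above 0 FPKM in at least 3 kidneys were kept, 18188 in all, and each of the 10 members passed. limma 3.58.1 in R 4.3.3 fitted the 9 group means with empirical Bayes variances, and p-values were adjusted over all genes by the Benjamini-Hochberg method. A gene was called where the log2 fold change exceeded 1 in size with an adjusted p below 0.05. Slopes over 16 to 26 min were fitted in the same way. Correlations used 100000 permutations, two-sided, adjusted over 45 pairs, in Python 3.11.15 with scipy 1.17.1. The scripts were tested on simulated data.

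Samples were grouped by the labels' ischemia time. Each kidney came from 1 mouse, and 3 mice limit the precision of each group. No batch, date or sex is given in the labels. Replicate numbers recur across groups, so a fit with the number as a block was an alternative.

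The members and gene lists were chosen with earlier results of these data known. Named in the text were all 10 members, Trp53 and Mdm4, up to 3 genes of each pathway list with the largest change among those called at 30 min, and the 3 genes most like 4 of the members. Chek1, Ccng2, Ckap2, Gtse1, Fas, Siva1, S100a8, S100a9 and Ncr1, and Phgdh, Plk3 and Sfn at 16 min, were named after their values were seen. Promoter sequences come from RefSeq and gene positions from GENCODE M21, both on GRCm38.

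Alternatives were pseudocounts of 0.1 and 0.01 FPKM, no quantile normalization, a constant sum per kidney (TPM), a filter of 1 FPKM, no filter, only the 2 groups compared, a variance trend, the replicate block, the adjusted p alone, and leaving out each kidney. For the correlations, deviations from the mean of each ischemia time were an alternative too. Leaving out kidneys and the 16 min group in the correlations was chosen after seeing the data.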

Additional observations from a re-analysis of the deposited data

Results flagged for a closer look

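The effect of ischemia differed between ischemia times for 2 members by an adjusted p under 0.05 and an absolute log2 fold change above 1, in limma's test of the difference between the times. Of all genes, 0.44% were called higher between 26 and 28 min and 2.56% between 16 and 30 min, and 1.06% and 3.67% lower. By the adjusted p alone it was 4 members between 26 and 28 min and 6 between 16 and 30 min, all higher. Beside these, 10.8% and 22.5% of all genes were higher, and 8.52% and 18.1% lower. Cdkn1a was higher at 28 min than at 26 min by 1.44 on the log2 scale (adjusted p = 0.012), in 3 of 3 kidneys above the whole 26 min group. Gdf15 was higher at 28 min than at 26 min by 1.38 (adjusted p = 0.010), likewise in 3 of 3 kidneys. Without 26 min replicate 2 the adjusted p-values of both were 0.062 and 0.079. Against 16 min, Cdkn1a was higher at 30 min by 2.72 (adjusted p = 1.01e-05) and Gdf15 by 2.62 (adjusted p = 7.53e-06), each in 3 of 3 kidneys above the 16 min group. Groups of 3 kidneys were too small to be tested for single kidneys that stood apart.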

How the results depend on the processing

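Counts of called members kept to within 1.5 times of their value at 20 and 22 min against 0 min, 28 and 30 min against 0 min, 30 against 28 min and 30 against 16 min under the changes of pseudocount, scaling, filter, samples fitted and variance model. With only the 2 groups compared, the count was 0 for each of 16, 18 and 26 min against 0 min and 1 for 28 against 26 min, where fewer kidneys set the spread. Of all 18188 genes, 8, 475, 590 and 243 were called in these 4 fits, against 410, 557, 686 and 272 in the main fit. With so few genes called at 16 min, the 0 there says little about the members. It was 2 at 18 min with a pseudocount of 0.01 FPKM or TPM scaling, where 1294 and 740 of all genes were called. It was 2 at 24 min with a pseudocount of 0.1 or 0.01 FPKM, no quantile normalization or TPM scaling. There 1109, 1294, 626 and 801 genes were called, against 567 in the main fit. At 26 min it was 2 with TPM scaling, where 951 genes were called. The adjusted p alone, which drops the fold minimum, gave, in the order of the 6 times from 16 to 26 min, 3, 6, 4, 6, 5 and 3 members, with 4 for 28 against 26 min. It gave 6 for 30 against 16 min. Other causes were not tested.

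Leaving out 1 kidney at a time gave 0 to 2 called members for 16 against 0 min and 0 to 1 for 18 against 0 min. At 16 min 287 of all genes were called without 16 min replicate 2 and 622 without 16 min replicate 3, against 410. The range was 1 to 1 for 20, 22 and 26 min and 1 to 2 for 24 min. It was 3 to 4 for 28 min, without replicate 3 at the low end, and 4 to 4 for 30 min. For 28 against 26 min it gave 0 to 2, with 0 without 26 min replicate 2, where 198 of all genes were called against 272. The range was 0 to 0 between 28 and 30 min and for the slope. It was 2 to 4 between 16 and 30 min. The number of correlated pairs was 10 to 15 of 45 with 1 kidney left out and 6 without the 16 min kidneys, against 12. Over single members, 1622 values under an alternative stayed on the same side of the threshold, 15 passed newly, 13 no longer passed and 0 changed sign where called.

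The replicate block took Bax over the adjusted p of 0.05 at 22 and 26 min (0.053 at both) and changed no count of called members: 1 from 16 to 26 min, 4 at 28 and 30 min against 0 min, 2 between 26 and 28 min, 0 between 28 and 30 min, 2 between 16 and 30 min and 0 for the slope. Kidneys with the same number did not pair, since over 108 same-number pairs the correlation of deviations ran from -0.416 to 0.48 with a median of -0.009, and 10 of 27 kidneys correlated best with their own number. Depth per kidney is not stated, and Bbc3 at about 2 FPKM is the member whose changes the log2(FPKM + 1) scale shrinks most.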
